A study of Caenorhabditis elegans with 7 samples.

Results

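Genes of acyl-CoA activation and fatty acid beta-oxidation were followed in whole L4 larvae of C. elegans by RNAseq. The set holds every gene with an acs, acdh, acox, ech or cpt symbol except acdh-1 and ech-6, together with kat-1, hacd-1, maoc-1, dhs-28, daf-22 and nhr-49. This gave 62 of the 46778 genes in the table, and 60 of them reached an FPKM (reads scaled to gene length and library size) of 0.5 or more in 3 or more of the 7 libraries. The carnitine palmitoyltransferase family gene cpt-3 and the synthetase gene acs-9 did not, with at most 20 and 36 reads in a library. The 4 WT Late libraries came from N2 animals whose lineage had been kept for 50 or more generations by taking forward only day 3 progeny, and the 3 WT libraries came from unselected N2 animals. Both groups were grown from synchronized L1s on OP50 bacteria with streptomycin, carried no transgene or induced mutation named in the labels, and differed in selection alone as labelled. The study's genome sequencing of WT Late animals did find variants in coding regions, which the labels do not give. Nothing in the sources says that the WT Late libraries came from separately selected lines, so p-values measure the spread between these libraries. The comparison asks whether the selected animals differ in the genes that burn fat, and whether mitochondrial and peroxisomal genes differ in the same way.

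Fatty acids enter beta-oxidation once an acyl-CoA synthetase has joined them to coenzyme A. In mitochondria, carnitine palmitoyltransferases bring the acyl group across the membranes, and acyl-CoA dehydrogenases, enoyl-CoA hydratases, hydroxyacyl-CoA dehydrogenases and thiolases then shorten the chain cycle by cycle. Peroxisomes run a parallel path that begins with acyl-CoA oxidases, and in C. elegans this path trims the side chains of ascaroside pheromones. The nuclear receptor NHR-49, of the HNF4 family, is known in worms for driving fat-burning genes, acs-2 among them, during fasting.

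Among the 60 genes tested, 2 were higher and 0 were lower in WT Late than in WT animals when a Benjamini-Hochberg adjusted p from limma under 0.05, taken over all genes tested, was required. They were the synthetase gene acs-2 and the dehydrogenase gene acdh-2, and together made up 3.33% of the 60 genes. Over all 13194 genes tested, 0.667% were higher, 0.182% were lower and 0.849% changed in either direction. Both genes passed the filter on low values through WT Late libraries alone, since neither reached an FPKM of 0.5 in any WT library, so they had to differ to be tested. The other 58 genes had log2 fold changes from -1.43 to 0.97 and none passed. At an unadjusted p under 0.05, limma gave 2 higher and 2 lower genes of the set, the lower ones being ech-1.1 and cpt-5. These made up 6.67% of the set, against 8.89% of all genes tested at that threshold (4.08% higher and 4.81% lower). All WT Late libraries lay above all WT libraries for 2 genes of the set, or 3.33%, against 4.67% of all genes tested, and below them for 1 gene, or 1.67%, against 5.09% of all genes tested. The median log2 fold change of the set was 0.06, with 31 genes above 0 and 29 below, while the median of all genes tested was -0.13.

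**Figure D1:**
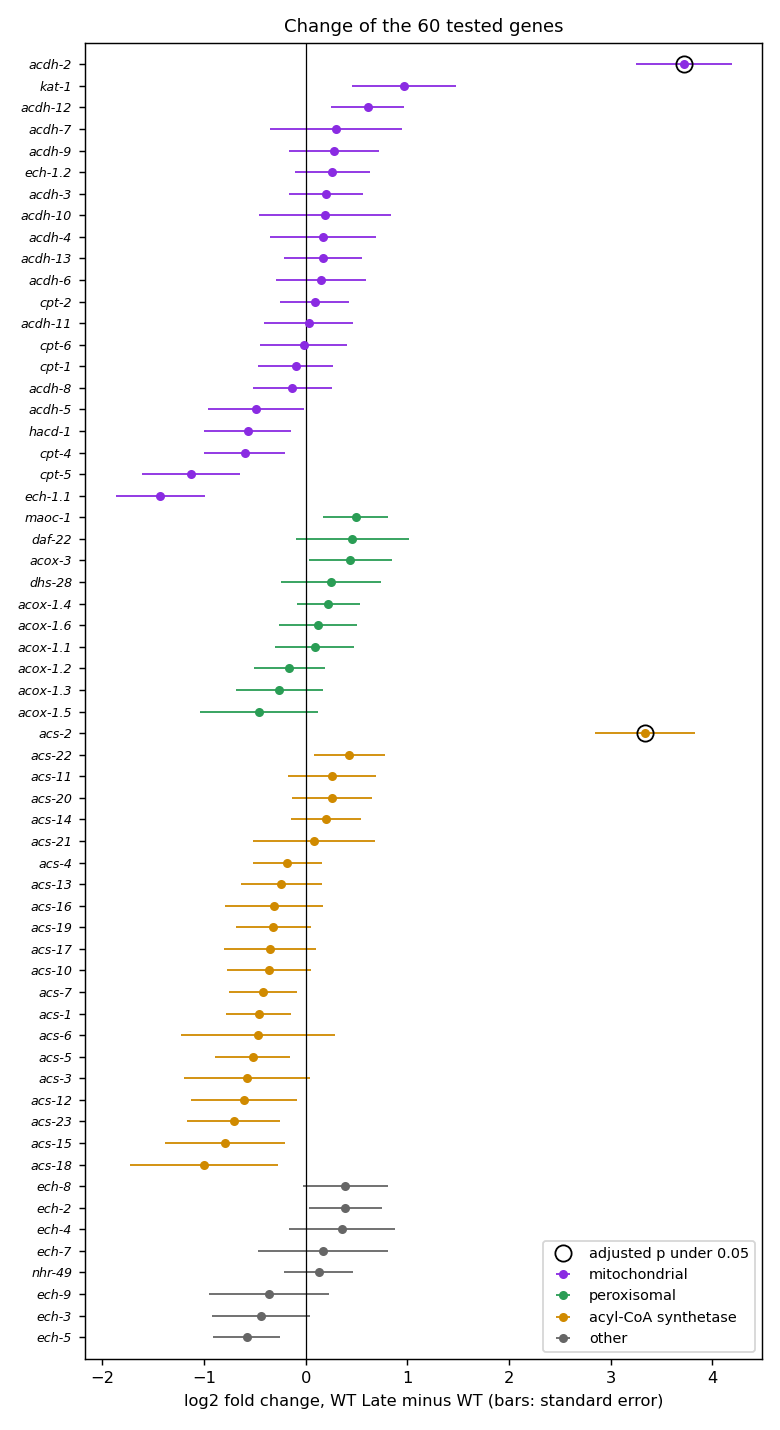
Log2 fold changes (WT Late minus WT, x axis) of the 60 tested genes, one gene per line, with bars for the standard error from limma and colours for mitochondrial genes, peroxisomal genes, acyl-CoA synthetases and other genes. Only acdh-2 at 3.72 and acs-2 at 3.34 are ringed as past an adjusted p of 0.05, and the remaining genes lie between -1.43 and 0.97.

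The libraries held between 17553893 and 20961698 reads on genes, and levels are given as rescaled FPKM, which is FPKM divided by 1 factor per library (0.848 to 1.38). WT Late replicate 3 stood apart: its Spearman correlations over genes with its own group reached only 0.798, against 0.864 to 0.933 for other WT Late pairs, and ribosomal protein genes took 13.2% of its reads, against 24.1% to 35.6% in the other libraries. With WT libraries its correlations were 0.835 to 0.875, within the 0.806 to 0.898 of the other WT Late libraries. WT Late replicate 2 had reads on 11069 genes, against 14418 to 18490 in the other libraries, and 7 of the 60 genes had no read there, 6 of them synthetase genes. The summed level of the 5 intestinal markers found was lowest in WT Late replicate 3 at 538, and spanned 538 to 3310 in WT Late against 1440 to 2780 in WT animals. The summed levels of hypodermal, muscle, germline, sperm and neuronal markers also overlapped, but for 3 of these lists the overlap came from WT Late replicate 3 alone. The 5 hypodermal markers summed to 453, 317, 116 and 407 in WT Late replicates 1 to 4, against 146, 206 and 121 in WT replicates 1 to 3. The 5 neuronal markers summed to 231, 233, 88.7 and 265 in WT Late libraries, against 184, 139 and 156 in WT libraries. The 5 germline markers summed to 46.8, 34.8, 136 and 75.4 in WT Late libraries, against 107, 214 and 79.9 in WT libraries. Without that library, hypodermal and neuronal markers were thus higher and germline markers lower in every WT Late library than in any WT library. In whole animals, fewer cells of a type and less RNA per cell cannot be told apart.

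The acyl-CoA synthetases carry out the activation step and were the largest family, with 21 of 22 genes tested. One of them, acs-2 (WBGene00009221, chromosome V, 15567394 to 15569889, plus strand), encodes a mitochondrial synthetase and is a familiar target of NHR-49. Its rescaled FPKM was 10.3, 9.79, 3.54 and 10.6 in WT Late replicates 1 to 4, against 0.293, 0.228 and 0.486 in WT replicates 1 to 3. The values rested on 403, 321, 319 and 228 reads in WT Late libraries, against 11, 11 and 23 reads in WT libraries. Every WT Late library was thus well above every WT library, and WT Late replicate 3 was the lowest of its group. The mean was 8.57 ± 3.37 (SD, n = 4) in WT Late and 0.336 ± 0.135 (SD, n = 3) in WT animals, a 25.5-fold ratio of the means. The log2 fold change was 3.34, on the scale of log2 of rescaled FPKM plus 0.5, which understates the change of low genes (standard error 0.49, adjusted p = 0.00623 from limma). By a two-sided exact permutation test p was 0.0286, the smallest value that 4 libraries against 3 allow. No WT library reached an FPKM of 0.5 for acs-2, so the gene had to be higher in WT Late libraries to be tested. The separation of the groups and this p are thus no independent support. The call was lost in 3 alternatives while the log2 fold change was about as large or larger, at 3.34 without the filter (adjusted p = 0.0509 from limma), 3.31 without WT replicate 1 (0.0589) and 4.5 with voom on the reads (0.105).

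No other synthetase gene passed, with log2 fold changes from -1.0 to 0.43 and a family median of -0.35 (6 genes above 0, 15 below). The highest mean levels over all 7 libraries were those of acs-5, acs-1 and acs-19, while among WT Late libraries alone acs-14 had the highest mean, at 37.7. For acs-1, which activates branched-chain fatty acids in worms, rescaled FPKM was 37.1, 29.8, 30.7 and 43.2 in WT Late replicates 1 to 4, against 40.8, 51.8 and 52.7 in WT replicates 1 to 3 (log2 fold change -0.46, adjusted p = 0.727 from limma). Only WT Late replicate 4 reached the lowest WT library. The synthetase gene acs-5 had values of 43.6, 30.6, 21.2 and 43.2 in WT Late libraries, against 42.1, 40.1 and 65.2 in WT libraries (log2 fold change -0.52). The acetyl-CoA synthetase gene acs-19 had values of 41.3, 30.2, 18.6 and 42.7 in WT Late libraries, against 37.2, 34.0 and 49.1 in WT libraries (log2 fold change -0.32). Both sets of libraries overlapped for these genes. The lowest fold changes were those of acs-18 at -1.0 and acs-15 at -0.79, where the WT Late values were 0.558, 0, 5.18 and 0.484 for acs-18 and 0, 0, 1.56 and 0.352 for acs-15, against 1.46, 3.47 and 1.80 for acs-18 and 0.806, 1.61 and 0.520 for acs-15 in WT libraries. For both, WT Late replicate 3 was the highest of its group and the other WT Late libraries were low. The family median was -0.13 without WT Late replicate 2, the library in which 6 synthetase genes had no read. The synthetase genes acs-20 and acs-22, of the fatty acid transport protein family, were at 0.26 and 0.43. The pseudogene acs-23 stayed under 1 rescaled FPKM in every library.

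The carnitine palmitoyltransferase family imports acyl groups into mitochondria, and 5 of its 6 genes were tested. The genes cpt-1 and cpt-2 encode the outer and inner membrane enzymes. For cpt-2, the most abundant, rescaled FPKM was 47.0, 50.5, 30.7 and 59.8 in WT Late replicates 1 to 4, against 36.8, 42.6 and 50.7 in WT replicates 1 to 3 (log2 fold change 0.09, 95% interval -0.66 to 0.83). For cpt-1 it was 22.1, 20.8, 11.3 and 24.4 in WT Late libraries, against 15.2, 25.7 and 21.6 in WT libraries (log2 fold change -0.10, 95% interval -0.91 to 0.70). Both sets of libraries overlapped, and the sign of these small differences turned in some alternatives. The family gene cpt-4 had 16.3, 18.7, 8.70 and 13.6 in WT Late libraries, against 13.2, 32.6 and 22.2 in WT libraries (log2 fold change -0.60). The largest difference of the family was that of cpt-5 (chromosome V, 13873153 to 13875891), at 1.33, 3.90, 4.87 and 2.20 in WT Late libraries against 4.69, 6.4 and 9.90 in WT libraries. Its log2 fold change was -1.13 (adjusted p = 0.507 from limma, exact permutation p = 0.0857), and WT Late replicate 3 was the one library of its group above the lowest WT library. With libraries weighted by estimated quality, which gave WT Late replicate 3 a weight of 0.194, cpt-5 was at -1.65 with an adjusted p of 0.02 from limma. That weighted fit called 500 genes higher and 558 lower of the 13194 tested.

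The acyl-CoA dehydrogenases take the first oxidation step in mitochondria, and 12 genes of the family were tested. Of these, acdh-2 (WBGene00015894, chromosome II, 5544781 to 5547492, minus strand) was higher in WT Late animals. Its rescaled FPKM was 6.82, 12.5, 13.3 and 5.84 in WT Late replicates 1 to 4, against 0.0830, 0.193 and 0.439 in WT replicates 1 to 3. The reads behind these values numbered 256, 394, 1159 and 121 in WT Late libraries, against 3, 9 and 20 in WT libraries. The groups did not overlap, and here WT Late replicate 3 was the highest library. The mean was 9.62 ± 3.84 (SD, n = 4) in WT Late and 0.239 ± 0.182 (SD, n = 3) in WT animals, and the log2 fold change was 3.72 ± 0.47 (standard error; limma, adjusted p = 0.00360; two-sided exact permutation p = 0.0286). The call held in all 18 alternatives run, with log2 fold changes from 3.04 to 5.46 and an adjusted p of at most 0.0435 from limma. However, acdh-2 passed the filter on low values through WT Late libraries alone, and most alternatives kept such a filter. Without the filter the adjusted p of acdh-2 was 0.0279 from limma. Its gene model overlaps ins-13 on the same strand, but ins-13 had at most 1 read in a library.

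The paralog acdh-1, which acts in the propionate shunt and lies outside the set, was far more abundant, at 1730, 1400, 1160 and 1010 in WT Late replicates 1 to 4, against 97.2, 171 and 128 in WT replicates 1 to 3. The level of acdh-2 was 0.395%, 0.893%, 1.15% and 0.578% of that of acdh-1 in WT Late libraries, against 0.0854%, 0.113% and 0.343% in WT libraries. This share was higher in every WT Late library than in any WT library. The sources used here do not say how reads that fit both genes were counted, and whether acdh-1 reads entered the acdh-2 values was not tested.

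**Figure D2:**
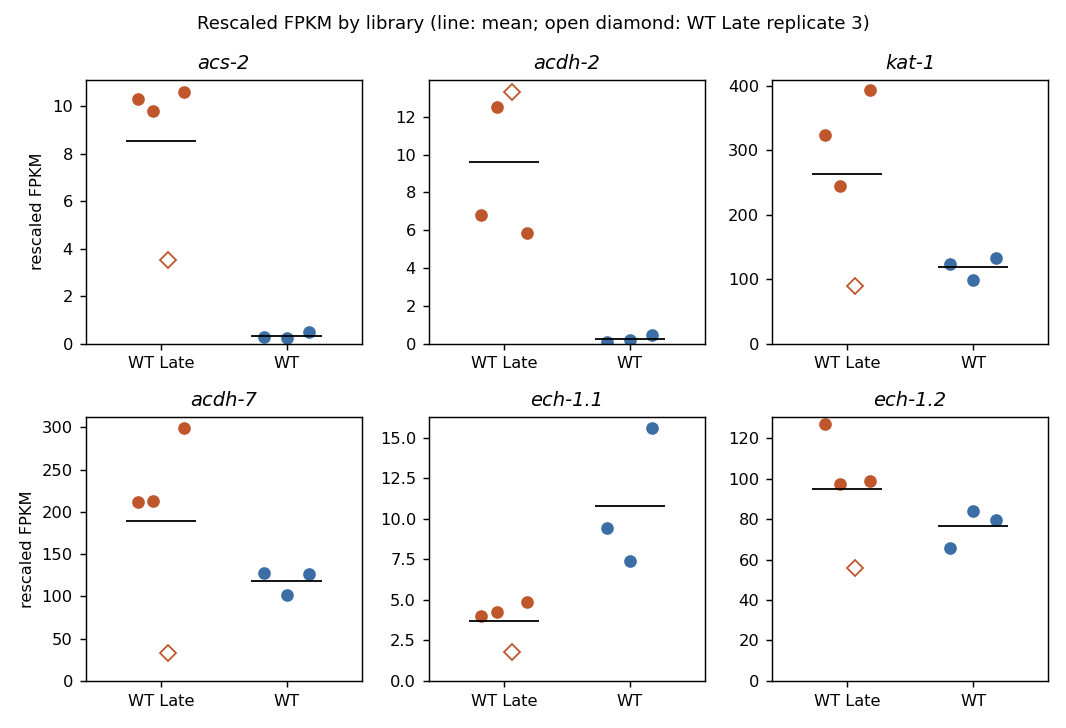
Rescaled FPKM (y axis, linear, from 0) of 6 genes in each WT Late library and each WT library, with a line for the group mean and an open diamond for WT Late replicate 3. The groups do not overlap for acs-2, acdh-2 and ech-1.1, while for kat-1, acdh-7 and ech-1.2 WT Late replicate 3 lies under all WT libraries and the other WT Late libraries lie above them.

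The other 11 dehydrogenase genes had log2 fold changes from -0.49 to 0.61 and did not pass, with 9 above 0. The most abundant was acdh-10, annotated as the medium-chain enzyme, at 294, 281, 49.9 and 456 in WT Late replicates 1 to 4, against 209, 151 and 193 in WT replicates 1 to 3. Its neighbour acdh-7, which lies 88 bases away on the same strand of chromosome X, had 212, 213, 32.7 and 299 in WT Late libraries, against 128, 102 and 126 in WT libraries. In both genes, WT Late replicates 1, 2 and 4 were above every WT library and WT Late replicate 3 was below every WT library. The log2 fold changes were 0.19 for acdh-10 and 0.30 for acdh-7 with all libraries, and 0.87 and 1.01 without WT Late replicate 3, where acdh-7 had an adjusted p of 0.0469 from limma. The gene acdh-9, close to acdh-3 in mean level over all libraries (76.6 and 75.9), followed the same order, with 115, 87.5, 34.9 and 103 in WT Late libraries against 74.6, 48.0 and 72.9 in WT libraries (log2 fold change 0.28). The gene acdh-12, a relative of the very-long-chain enzyme, had 93.6, 76.2, 42.3 and 59.6 in WT Late libraries, against 39.4, 46.3 and 42.4 in WT libraries (log2 fold change 0.61, adjusted p = 0.674 from limma). At the low end, acdh-5 had 2.86, 3.57, 9.09 and 2.72 in WT Late libraries, against 6.17, 7.51 and 4.29 in WT libraries (log2 fold change -0.49), and WT Late replicate 3 was the highest of all libraries. The gene acdh-11, known in worms for binding medium-chain acyl-CoA during heat adaptation, was at 0.03.

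The enoyl-CoA hydratase family takes the second step, and 9 genes were tested. The genes ech-1.1 and ech-1.2 encode relatives of the alpha subunit of the mitochondrial trifunctional protein and had fold changes of opposite sign. For ech-1.1 (WBGene00001150, chromosome V, 15357696 to 15360738, minus strand), rescaled FPKM was 3.99, 4.23, 1.78 and 4.85 in WT Late replicates 1 to 4, against 9.47, 7.41 and 15.6 in WT replicates 1 to 3. The groups did not overlap, the only gene of the set with all WT Late values under all WT values. The log2 fold change was -1.43 (standard error 0.44, 95% interval -2.39 to -0.47), and it did not pass over all genes (adjusted p = 0.263 from limma, two-sided exact permutation p = 0.0286). It passed only with library weights, at -1.34 with an adjusted p of 0.0306 from limma, a fit that called 558 of the 13194 genes tested lower. For ech-1.2 the values were 127, 97.6, 55.7 and 99.1 in WT Late libraries, against 65.8, 84.0 and 79.7 in WT libraries (log2 fold change 0.26, adjusted p = 0.878 from limma). The ratio of ech-1.1 to ech-1.2 was 0.0314, 0.0433, 0.0319 and 0.0490 in WT Late libraries, against 0.144, 0.0883 and 0.196 in WT libraries. This ratio, chosen after the values were seen and given as a description, did not overlap between the groups.

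The highest level in the whole set was that of the hydratase family gene ech-7, at 441, 258, 73.3 and 457 in WT Late replicates 1 to 4, against 339, 125 and 253 in WT replicates 1 to 3 (log2 fold change 0.17, 95% interval -1.23 to 1.58). WT Late replicate 3 was the lowest of all libraries. For the family gene ech-4 the values were 180, 145, 37.4 and 140 in WT Late libraries, against 103, 60.2 and 96.2 in WT libraries (log2 fold change 0.36), with WT Late replicate 3 again lowest and the other WT Late libraries highest. For ech-5 they were 17.1, 20.1, 18.2 and 26.2 in WT Late libraries, against 38.7, 22.4 and 31.8 in WT libraries (log2 fold change -0.58, adjusted p = 0.671 from limma), and only WT Late replicate 4 was above the lowest WT library. For ech-3 the log2 fold change was -0.44, and the genes ech-2, ech-8 and ech-9 lay between -0.36 and 0.39.

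The later mitochondrial steps were represented by hacd-1, a 3-hydroxyacyl-CoA dehydrogenase gene, and kat-1, the gene of a 3-ketoacyl-CoA thiolase known in worms for its part in fat storage. For kat-1 (WBGene00002183, chromosome II, 7073796 to 7075551, plus strand), rescaled FPKM was 324, 244, 89.9 and 394 in WT Late replicates 1 to 4, against 123, 99.3 and 133 in WT replicates 1 to 3. WT Late replicates 1, 2 and 4 were well above every WT library and WT Late replicate 3 was below every WT library. The log2 fold change was 0.97 (standard error 0.51, 95% interval -0.14 to 2.07) and did not pass (adjusted p = 0.635 from limma, exact permutation p = 0.171). Without WT Late replicate 3 it was 1.42 with an adjusted p of 0.0157 from limma, and with library weights it was 1.37 with 0.0161. In the comparison without that library, 643 of 12640 genes were called, or 5.09%, and acs-2, acdh-2, kat-1 and acdh-7 were the genes of the set among them. With library weights, 500 of the 13194 genes tested were called higher. For hacd-1 the values were 75.1, 44.2, 29.3 and 63.6 in WT Late libraries, against 78.2, 46.7 and 112 in WT libraries, with overlap and a log2 fold change of -0.57 (adjusted p = 0.753 from limma).

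Mitochondrial and peroxisomal genes were then compared. The mitochondrial list held the cpt and acdh genes, ech-1.1, ech-1.2, hacd-1 and kat-1, with 21 of 22 tested, and the peroxisomal list held the acox genes, maoc-1, dhs-28 and daf-22, with all 10 tested. The synthetases, the other ech genes and nhr-49 were in neither, and the place of each gene was taken from its family and not measured. The median log2 fold change was 0.15 for the mitochondrial list (13 genes above 0, 8 below, range -1.43 to 3.72) and 0.17 for the peroxisomal list (7 above 0, 3 below, range -0.46 to 0.49), beside -0.13 for all genes tested. After quantile normalization the medians were -0.01 and 0.03, beside -0.01 for all genes. The mitochondrial list was then level with all genes, and the peroxisomal list only slightly above them. The call of acdh-2 belongs to the mitochondrial list, and 0 peroxisomal genes passed. At an unadjusted p under 0.05, 3 of the 21 mitochondrial and 0 of the 10 peroxisomal genes were found, lists too short to set against the 8.89% of all genes. The medians differed by -0.03, a description with no test. With acs-2 added the mitochondrial median was 0.16, and with acs-7, ech-8 and ech-9, whose place is less sure, the peroxisomal median was 0.12. Without WT Late replicate 3 the medians were 0.13 and 0.35, a difference of -0.22.

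The levels were also summed over each list. The mitochondrial genes summed to 1539, 1307, 549.4 and 1757 rescaled FPKM in WT Late replicates 1 to 4, against 958.5, 838.0 and 1026 in WT replicates 1 to 3. The peroxisomal genes summed to 907.9, 671.6, 315.7 and 678.4 in WT Late libraries, against 469.8, 384.8 and 585.9 in WT libraries. In both compartments WT Late replicates 1, 2 and 4 were above every WT library and WT Late replicate 3 was below every WT library. The hypodermal and neuronal marker sums given above had the same order. In contrast, germline marker sums were lower in WT Late replicates 1, 2 and 4 than in any WT library. The intestinal, muscle and sperm marker sums overlapped between groups even without WT Late replicate 3. The part of tissue makeup in the summed levels, or in kat-1, acdh-7, acdh-10, daf-22 and dhs-28, was not tested. The ratio of the mitochondrial to the peroxisomal sum was 1.70, 1.95, 1.74 and 2.59 in WT Late libraries, against 2.04, 2.18 and 1.75 in WT libraries, with a mean of 1.99 ± 0.413 (SD, n = 4) in WT Late and 1.99 ± 0.218 (SD, n = 3) in WT animals. The sums rest on few genes: daf-22 and dhs-28 made up 51.2% to 79.8% of the peroxisomal sum over the 7 libraries.

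**Figure D3:**
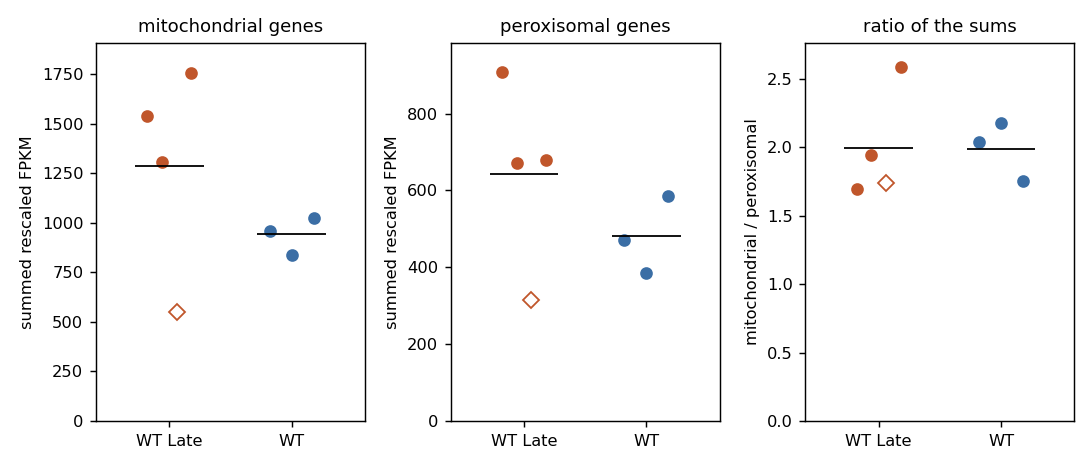
Summed rescaled FPKM of the mitochondrial and of the peroxisomal genes (y axes from 0) and the ratio of the sums, by library, WT Late left of WT, with a line for the group mean and an open diamond for WT Late replicate 3. Both sums are lowest in that library, at 549.4 and 315.7, while the ratio averages 1.99 in each group.

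The acyl-CoA oxidases open the peroxisomal path, and the 7 genes had log2 fold changes from -0.46 to 0.44, none past the threshold. For acox-1.1, the most abundant, rescaled FPKM was 53.3, 48.9, 20.3 and 43.2 in WT Late replicates 1 to 4, against 32.0, 33.9 and 45.1 in WT replicates 1 to 3 (log2 fold change 0.09). For acox-1.6 the values were 31, 16.2, 12.2 and 23.7 in WT Late libraries, against 15.7, 16.3 and 22.2 in WT libraries (log2 fold change 0.12). Both overlapped between groups. The genes acox-1.1, acox-1.2, acox-1.3 and acox-1.4 follow each other on the plus strand of chromosome I, with 55, 374 and 33 bases between them, and had log2 fold changes of 0.09, -0.16, -0.26 and 0.22. None of the 4 neighbours differed from 0 by more than its standard error. For acox-3 the values were 14.9, 23.5, 19.9 and 10.9 in WT Late libraries, against 7.06, 13.4 and 18.5 in WT libraries (log2 fold change 0.44). For acox-1.5 they were 3.52, 3.98, 25.5 and 7.12 in WT Late libraries, against 10.6, 12.0 and 8.12 in WT libraries (log2 fold change -0.46), so that WT Late replicate 3 was above every WT library and the other WT Late libraries were below them.

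The enzymes of the later peroxisomal steps are the hydratase MAOC-1, the dehydrogenase DHS-28 and the thiolase DAF-22, all needed in worms to shorten ascaroside side chains. For daf-22 (chromosome II, 12423514 to 12425694), rescaled FPKM was 383, 264, 69.8 and 268 in WT Late replicates 1 to 4, against 181, 109 and 176 in WT replicates 1 to 3. For dhs-28 (chromosome X, 6818438 to 6820080), it was 342, 241, 92.0 and 249 in WT Late libraries, against 173, 135 and 234 in WT libraries. In both genes WT Late replicates 1, 2 and 4 exceeded every WT library and WT Late replicate 3 was the lowest of all. The log2 fold changes were 0.46 for daf-22 (adjusted p = 0.853 from limma) and 0.25 for dhs-28 (adjusted p = 0.913), and without WT Late replicate 3 they were 0.98 and 0.64, neither past the threshold. For maoc-1 the values were 40.5, 42.2, 44.5 and 39.6 in WT Late libraries, against 23.7, 26.1 and 41.3 in WT libraries (log2 fold change 0.49, 95% interval -0.21 to 1.2). Here WT Late replicate 3 was the highest library, and WT replicate 3 lay among the WT Late values. The gene lies 1460 bases from acdh-12 on the opposite strand, and that neighbour was at 0.61.

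The deviations from WT followed the level of a gene, in one direction in WT Late replicate 3 and in the other in the remaining WT Late libraries. Of the 11 genes of the set with a WT mean of 60 or more, all 11 were below the WT mean in WT Late replicate 3, with a median log2 deviation of -1.11, against 0.76 for the mean of the other WT Late libraries. All 1272 tested genes at that level had medians of -1.2 and 0.44. Of the 14 genes of the set with a WT mean from 20 to 60, 13 were below it in WT Late replicate 3 (median -0.77, against 0.10 in the other WT Late libraries), while all tested genes at that level were at -0.46 and 0.15. Of the 20 genes from 5 to 20, 9 were below in WT Late replicate 3 (median 0.11) and 10 in the other WT Late libraries (median 0.00), with all tested genes at -0.01 and -0.17. Of the 15 genes under 5, 4 were below in WT Late replicate 3 (median 0.55) and 13 in the other WT Late libraries (median -0.42), with all tested genes at 0.36 and -0.40. Both trends were thus also found in genes outside the set.

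**Figure D4:**
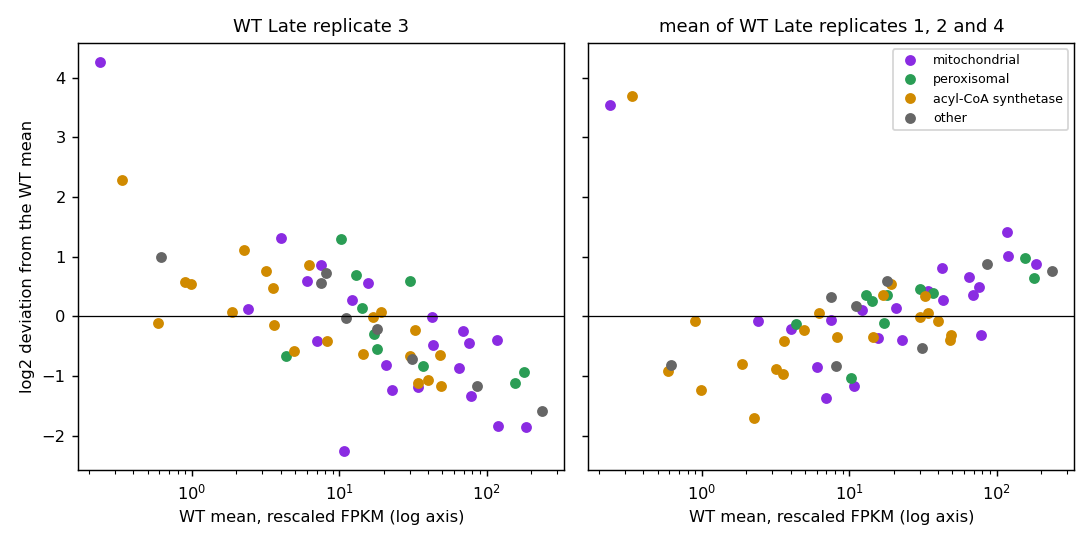
Mean level in WT (x axis, rescaled FPKM, log axis) and log2 deviation from the WT mean (y axis) of the 60 genes in WT Late replicate 3 (left) and for the mean of WT Late replicates 1, 2 and 4 (right), coloured by class. The 11 most abundant genes have a median deviation of -1.11 on the left and 0.76 on the right, and acdh-2 and acs-2 stand high at the low end in both.

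**Figure D5:**
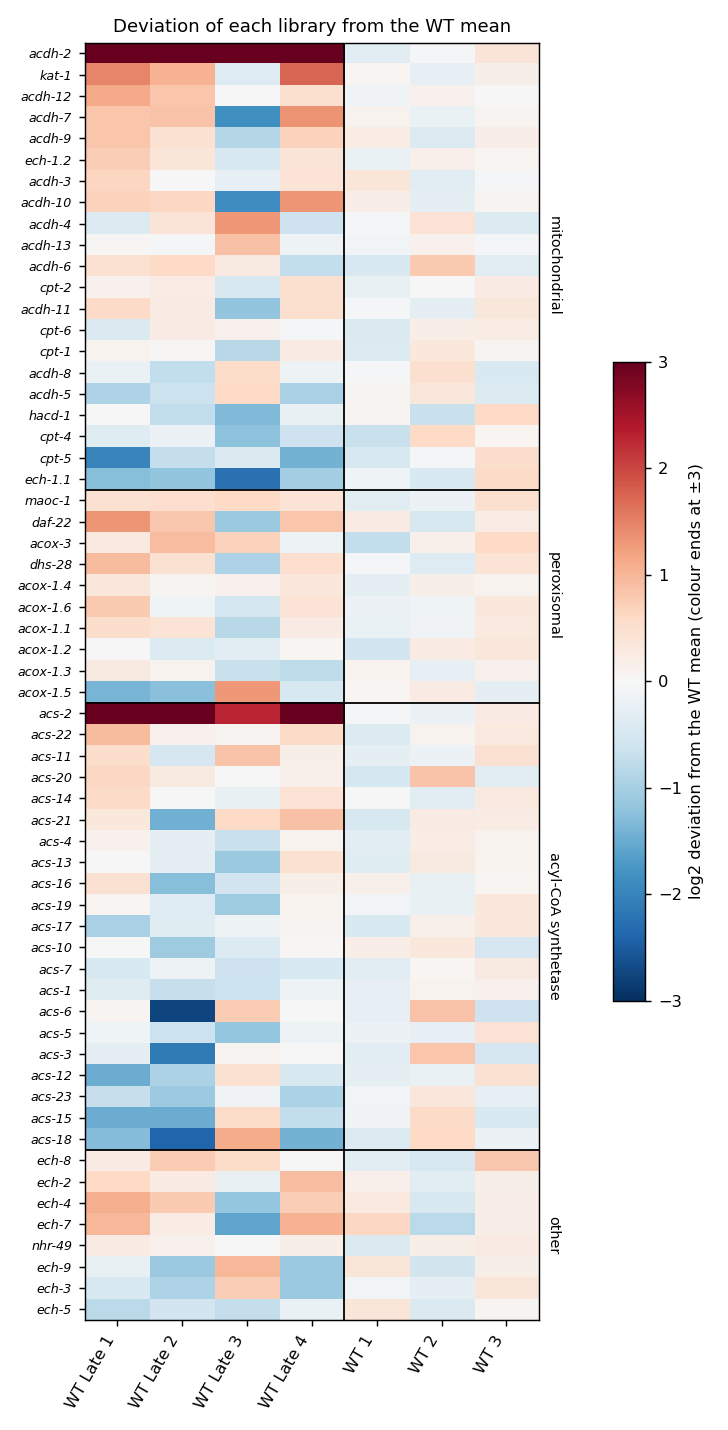
Log2 deviation from the WT mean (colour, ends at 3 in either direction) of each of the 60 genes in each library, WT Late libraries left of WT libraries, genes grouped by class and ordered by fold change. The lines of acdh-2 and acs-2 are red in all 4 WT Late libraries and that of ech-1.1 is blue in all 4, while WT Late replicate 3 often takes the opposite colour to its group in genes such as kat-1, acdh-7, acdh-10 and daf-22.

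The regulator gene nhr-49 (chromosome I, 9869632 to 9874676) had 12.9, 11.8, 10.7 and 12.2 rescaled FPKM in WT Late replicates 1 to 4, against 7.87, 12.3 and 13 in WT replicates 1 to 3. The WT Late values lay within the WT range, and the log2 fold change was 0.13 (95% interval -0.60 to 0.86, adjusted p = 0.941 from limma). The 4 partner genes of the receptor that were examined did not pass either. The largest difference among them was that of mdt-15, a Mediator subunit gene whose product binds NHR-49, at 7.78, 7.89, 9.86 and 12.6 in WT Late libraries, against 12.2, 20.1 and 23.2 in WT libraries (log2 fold change -0.90, adjusted p = 0.461 from limma). Next was nhr-80, a nuclear receptor gene, at 0.49.

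Other genes of the pathway were taken by symbol. The median log2 fold change of 17 genes of peroxisome assembly and transport was 0.25. Over all genes tested 0.849% were called, and of these 17 genes 1 was called. It was pmp-5 (WBGene00004062, chromosome V, 6662191 to 6665813), an ABC transporter gene annotated as related to peroxisomal membrane proteins, at 159, 123, 116 and 169 rescaled FPKM in WT Late replicates 1 to 4, against 13, 20.9 and 11.1 in WT replicates 1 to 3. All WT Late libraries, replicate 3 included, were several times above all WT libraries. The log2 fold change was 3.23 ± 0.35 (standard error; limma, adjusted p = 0.00245; two-sided exact permutation p = 0.0286), and the call held in all 18 alternatives, with an adjusted p of at most 0.0329 from limma. The import receptor gene prx-5 was at 16.7, 13.4, 13.7 and 10.5 in WT Late libraries, against 6.25, 6.07 and 8.09 in WT libraries, also without overlap, but did not pass (log2 fold change 0.94, adjusted p = 0.379 from limma). The gene prx-14 did not overlap or pass either (log2 fold change 0.39, adjusted p = 0.779 from limma). In 3 of the 17 genes every WT Late library thus lay above every WT library, against 4.67% of all genes tested.

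Of 11 partner genes of the mitochondrial enzymes, 0 passed, and their median was 0.34. The largest differences were those of let-721, the electron transfer flavoprotein dehydrogenase gene, and decr-1.1, of the dienoyl-CoA reductase family. For let-721 the values were 61.3, 49.3, 46.4 and 43.4 in WT Late libraries, against 25.4, 29.8 and 29.1 in WT libraries (log2 fold change 0.82, adjusted p = 0.409 from limma), without overlap. Of the 11 genes it was the 1 with all WT Late libraries above all WT libraries, against 4.67% of all genes tested. For decr-1.1 they were 19.7, 5.29, 9.87 and 7.06 in WT Late libraries, against 47.3, 3.41 and 45.7 in WT libraries (log2 fold change -1.07), where the WT libraries themselves were far apart. Of 7 acyl-CoA binding protein genes, which code for carriers of activated fatty acids, 0 passed, with a median of 0.08 and the largest differences in acbp-7 at -1.29 and acbp-6 at -0.82. Reads on acbp-7 numbered at most 13 in a library.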

How the data were processed

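Whole L4 animals were sequenced by Novogene from RNA extracted with a Direct-zol kit. The authors deposited FPKM for 46778 genes in 7 libraries, with gene coordinates. The study states 3 replicates for this comparison, whereas the table holds 4 WT Late libraries, and all were used. Coordinates are as deposited. Their build, like the aligner, counter and strand setting, is not given in the sources used. The library size implied by FPKM ranged from 0.675 to 1.79 of the reads on genes. Reads were recovered from FPKM and gene length, with 100% of values within 0.02 of a whole number. The study does not say whether copies made by PCR were removed before counting. Of the 62 gene identifiers, 61 were found in the reference with the same symbol, the exception being acs-23.

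Each library was divided by its median-of-ratios factor, from the 10634 genes above 0 in every library. The log2 of the result plus a pseudocount of 0.5 was tested in R 4.3.3 with limma 3.58.1 (lmFit, eBayes with a variance trend) for genes past the filter, with Benjamini-Hochberg adjustment over all of them and 0.05 as the threshold. The script was tested on simulated data. A two-sided exact permutation test, whose smallest p is 0.0286, was added for single genes. Lists are described by counts and medians with no test. Named are called genes, nhr-49 and the 5 enzyme genes chosen singly, and in each family the 3 highest levels and the 3 largest changes. Companion genes are named where called or among the 2 largest changes of their list. The genes prx-5, prx-14, acdh-11, acs-20, acs-22, acs-23, acdh-3, acs-14 and the remaining ech genes were added after their values were seen, as was acox-1.4. The members, lists and rules were chosen with earlier results of these data known.

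Alternatives tried were the deposited FPKM without a factor, quantile normalization, removal of the trend with gene length (lowess span 0.3), a pseudocount of 0.1 or 1, a filter at an FPKM of 5 or none, eBayes with no trend, weights for libraries, voom on recovered reads, a block for the replicate number, and each library left out. Calls were also counted with a log2 fold change of at least 1 and, added after seeing the data, at an unadjusted p.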

Additional observations from a re-analysis of the deposited data

Results flagged for a closer look

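Among 46 sets of the 4 WT Late values examined for 1 library far from the others, 4 stood out by Dixon's criterion. Chance gives about 1 in 20 sets. The sets share the same libraries and are not independent, and the number of these flags was not tested against that rate. All 4 had WT Late replicate 3 on the low side. The gap to the nearest library was 0.845 of the group's range for acdh-7, 0.925 for acs-2, 0.838 for ech-4 and 0.842 for the median deviation of the peroxisomal genes from the WT mean. For acs-2 that library, at 3.54 rescaled FPKM, still lay above every WT library, which reached 0.486.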

How the results depend on the processing

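The calls of acdh-2 and pmp-5 held in all 18 alternatives and that of acs-2 was lost in 3. Quantile normalization, which moved the median of all genes by over 0.1 to -0.01, gave 43 lower genes in place of 24, and put acdh-10 at -0.07, acdh-7 at -0.01, acox-1.1 at -0.10, acox-1.6 at -0.03, cpt-2 at -0.07 and ech-7 at -0.03. Removing the trend with length put acox-1.2 at 0.02 and cpt-1 at 0.30. Without the filter 42 genes were higher and 9 lower, 1 of them in the set. Library weights gave 500 higher and 558 lower genes of 13194 tested, with 3 higher and 2 lower of the 60 in the set, and cpt-1 at 0.10. Voom gave 1 higher gene in the set. At an unadjusted p, 538 genes were higher and 635 lower, with 2 lower in the set. None of the genes that turned sign was called in these fits, and the cause of the differences was not tested.

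Deviations from the group mean had correlations of 0.237, -0.092 and -0.185 between same-numbered WT Late and WT libraries. Between libraries of different number they ranged from -0.326 to 0.314. So few values cannot decide whether the numbers pair the samples. With the replicate number as a block, 67 genes were higher and 32 lower, the 2 calls in the set were kept, and acdh-10 was at -0.19, acdh-7 at -0.05, cpt-2 at -0.04 and ech-7 at -0.12.

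With each library left out in turn, 23 to 361 genes were higher and 5 to 282 lower, with 1 to 4 higher in the set. The mitochondrial median ranged from -0.04 to 0.14, the peroxisomal from -0.03 to 0.35, that of the synthetases from -0.48 to -0.13, and the difference of the first pair from -0.22 to 0.07. Fold changes that turned sign were those of acox-1.1 (-0.06 to 0.40), acox-1.6 (-0.10 to 0.34), acox-1.2 (-0.45 to 0.01), ech-7 (-0.24 to 0.76), cpt-1 (-0.31 to 0.13), cpt-2 (-0.04 to 0.28), acdh-10 (-0.19 to 0.87), acdh-7 (-0.05 to 1.01) and nhr-49 (-0.09 to 0.25). With 3 or 4 libraries in a group, and 3 to 23 reads per WT library behind acs-2 and acdh-2, the size of these changes is known only roughly.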
